A study of Homo sapiens with 6 samples.

Results

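The small RNA repertoire described here is that of K562 cells that received the empty lentiviral vector. Its members were chosen by their sample titles, which name 3 empty vector controls among the 6 samples of the study, and all 28846 small RNA entries counted in them were taken. K562 is a human line from a chronic myelogenous leukemia in blast crisis, carries the BCR-ABL fusion and keeps erythroid and megakaryocytic features. The control cells were transduced with the SIEW vector expressing GFP alone and were lysed after 10 days in culture, and the 3 samples came from independent transductions of this single line. The other 3 samples of the study carried a RUNX1 vector and were not used. Whether the cells were sorted for GFP is not given in the sources used here.

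The input of each small RNA library was 1000 ng of total RNA, and single-end sequencing gave reads of 51 nt. The deposited files list a whole-number count for each annotated entry. The total count was 1618248 in control 1, 6152921 in control 2 and 6193319 in control 3. Control 1 was thus the shallowest library, and 3 counts, taken as a floor for levels, correspond to 1.85 CPM there against 0.488 and 0.484 CPM in the other samples. Detection was counted from 1 count, below this floor. CPM is the count per 1000000 counts of the sample. The sequencing reads carry no molecular identifiers, so that intervals, floors and chi-square tests on counts cover counting error only.

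MicroRNAs are small RNAs cut from hairpin precursors by Drosha and Dicer, and either arm of the hairpin, named 5p and 3p, can be loaded into an Argonaute protein. The loaded strand pairs with messenger RNAs mainly through its seed, bases 2 to 8, so that microRNAs with the same seed form a family with overlapping targets. In blood, miR-451a and miR-144 mark erythroid cells, miR-126 and miR-223 mark megakaryocytic and myeloid cells, and miR-150 and miR-155 mark lymphoid cells. Small nucleolar RNAs (snoRNAs) guide the modification of ribosomal RNA, with C/D box members directing methylation and H/ACA box members pseudouridylation, and their relatives in Cajal bodies (scaRNAs) act on spliceosomal RNAs.

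Sequences were taken from RefSeq (GRCh38.p14), in which 2262 of the 2576 microRNA names had a mature sequence, and these took 93.1% ± 0.132 of the microRNA counts (SD, n = 3). The 10 most abundant microRNAs are shown first, 5′ to 3′ in order of their mean level, because they make up most of the microRNA counts. The seed is in capitals.
miR-21-5p: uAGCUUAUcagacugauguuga
miR-191-5p: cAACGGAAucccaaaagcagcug
miR-10a-5p: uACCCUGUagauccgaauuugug
miR-126-5p: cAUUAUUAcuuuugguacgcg
miR-146b-5p: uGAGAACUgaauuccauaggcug
miR-22-3p: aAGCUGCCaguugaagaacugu
miR-182-5p: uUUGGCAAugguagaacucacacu
miR-99b-5p: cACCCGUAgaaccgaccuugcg
miR-92a-3p: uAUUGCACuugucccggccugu
miR-20a-5p: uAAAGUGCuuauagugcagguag
No 2 of these 10 sequences share a seed.

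The seeds of miR-92a-3p and miR-20a-5p were the ones carried by several abundant microRNAs. Their relatives are shown because the family sums below rest on them, and because some differ by so few bases that a read with a sequencing error could be placed on the wrong name.
miR-25-3p: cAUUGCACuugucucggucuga
miR-92b-3p: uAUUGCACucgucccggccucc
miR-32-5p: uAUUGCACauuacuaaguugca
miR-17-5p: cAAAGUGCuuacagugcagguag
miR-93-5p: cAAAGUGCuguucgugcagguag
miR-106b-5p: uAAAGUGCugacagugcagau
miR-106a-5p: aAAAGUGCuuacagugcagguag
miR-20b-5p: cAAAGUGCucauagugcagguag
The sequences of miR-17-5p and miR-106a-5p differed at 1 of 23 bases and those of miR-20a-5p and miR-20b-5p at 2 of 23.

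MicroRNAs dominated the libraries. They took 80.7% of all counts in control 1, 80.0% in control 2 and 80.8% in control 3, a mean of 80.5% ± 0.425 (SD, n = 3 here and below unless stated). SnoRNA entries followed with 11.6% ± 0.303, of which C/D box snoRNAs held 7.62% ± 0.132 of all counts, H/ACA box snoRNAs 0.416% ± 0.035 and scaRNAs 0.196% ± 0.0115. A further 3.32% ± 0.136 of all counts lay on 19 snoRNA entries that carry the name of a host gene. Ribosomal RNA entries took 6.16% ± 0.282, snRNA entries 0.241% ± 0.0114 and piRNA-annotated entries 0.215% ± 0.0115, although the 23373 piRNA-annotated entries are by far the most numerous in the files. The order of these classes was the same in the 3 samples. Entries of snRNA and piRNA lay closest together, at 0.233% to 0.254% and 0.208% to 0.228%, with snRNA the higher in each sample.

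**Figure D1:**
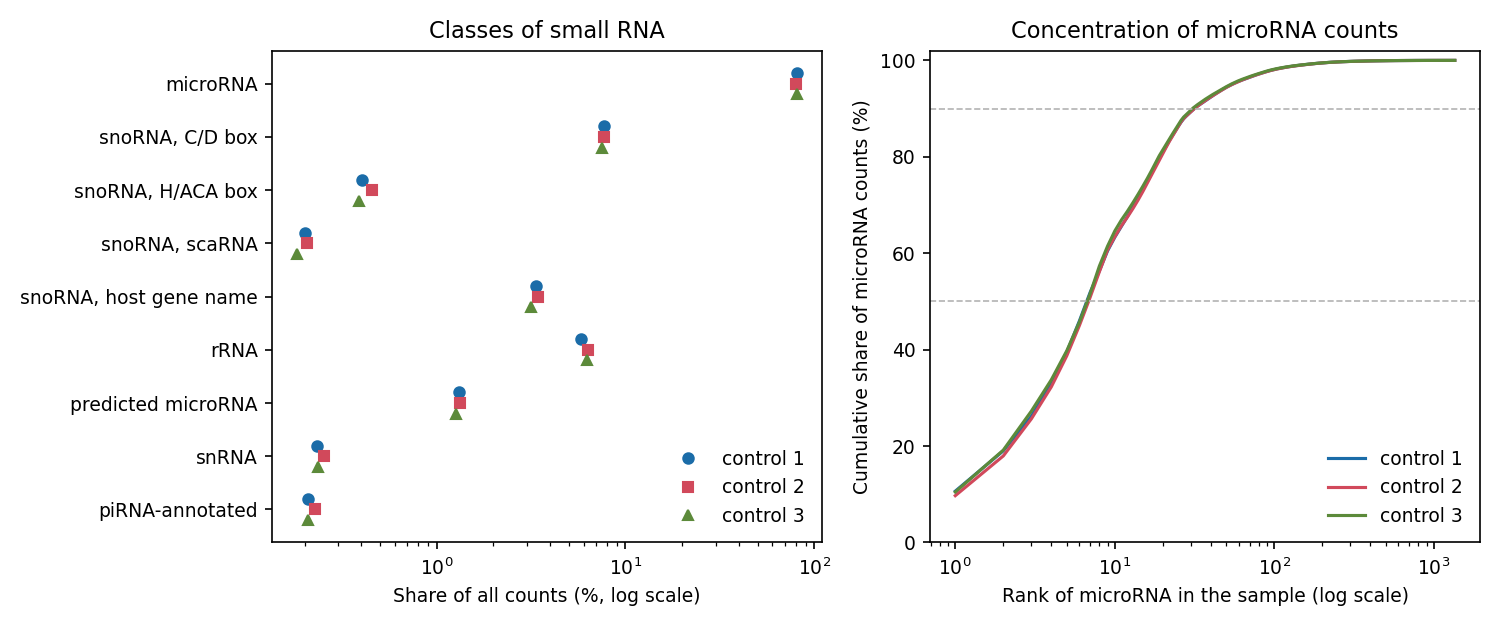
Left, share of all counts (percent, log scale) on each class of small RNA in each of the 3 control samples, with 1 symbol per sample. Right, cumulative share of the microRNA counts (percent) against the rank of the microRNA in each sample (log scale), with dashed lines at 50% and 90%. The 3 samples overlie each other, with microRNAs at 80.0% to 80.8% of all counts and 7 microRNAs enough for 50% of the microRNA counts.

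The microRNA counts were concentrated on few names. In each of the 3 samples 7 microRNAs were enough to hold 50% of the microRNA counts, and 32, 32 and 31 held 90% in controls 1, 2 and 3. The 10 most abundant held 63.8% and the 25 most abundant 86.4% of the microRNA counts on average, and 24 of these 25 were among the first 25 in every sample. At the other end, 1224 of the 2576 listed microRNAs had no count in any sample, 694 had a mean above 0 but under 1 CPM, and 326 lay from 1 to 10 CPM and held 0.142% of the microRNA counts. Between these ends 192 microRNAs lay from 10 to 100 CPM, 86 from 100 to 1000 CPM, 34 from 1000 to 10000 CPM and 20 above that, and those 20 alone took 81.0% of the microRNA counts. Counts were found on 907 microRNAs in control 1, 1163 in control 2 and 1151 in control 3, with 803 in all 3. At the depth of control 1 the deeper libraries would be expected to show 884 and 880 microRNAs, so that the lower number in control 1 lay close to what its depth gives.

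miR-21-5p, which represses PDCD4 and is abundant in many tumors, ranked first in every sample with 85892, 77627 and 84550 CPM in controls 1, 2 and 3. It took 10.3% ± 0.5 of the microRNA counts. Its precursor lies at chr17:59841266-59841337 on the plus strand (GRCh38.p14), in an exon of VMP1 by GENCODE 29. miR-191-5p, a broadly expressed microRNA often used for normalization in blood, stood at 67534, 65982 and 65422 CPM, and its precursor at chr3:49020618-49020709 (minus strand) lies in an intron of DALRD3. miR-10a-5p, which is encoded in the HOXB cluster at chr17:48579838-48579947 (minus strand), reached 58090, 61639 and 70230 CPM. It had rank 3 in controls 1 and 2 and rank 2 in control 3, so that the order of miR-191-5p and miR-10a-5p was not the same in all samples.

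The ranks after these were close together. miR-126-5p had 52190, 53103 and 52462 CPM, and the precursor at chr9:136670602-136670686 (plus strand) lies in an intron of EGFL7, an endothelial gene. miR-146b-5p, which targets adaptors of Toll-like receptor signaling, had 54582, 51579 and 47996 CPM. miR-22-3p, made from the exon of its own host transcript MIR22HG at chr17:1713903-1713987 (minus strand), had 52788, 50277 and 47481 CPM. The values of these microRNAs overlapped, as did those of miR-182-5p, a member of the miR-183/96/182 cluster, with 47594, 46646 and 48648 CPM.

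miR-99b-5p was eighth in every sample, with 36132, 42465 and 46312 CPM, and was lowest in control 1. It was followed by miR-92a-3p with 33379, 36104 and 33378 CPM and miR-20a-5p with 23040, 22142 and 25593 CPM, members of the miR-17/92 cluster, which is known as a MYC target and oncogene. miR-25-3p, from the paralogous cluster in an intron of MCM7, had 18165, 18099 and 18381 CPM. From miR-182-5p to miR-30e-5p each of these stood above the next in 3 of 3 samples. Among all 24 neighboring pairs of the 25 most abundant microRNAs, 13 kept their order in all 3 samples. The exact paired permutation test cannot give a p under 0.25 with 3 samples, and the order of neighbors is therefore given as a description.

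The remaining names among the first 25 had means from 7514 to 15077 CPM. They were miR-30e-5p, miR-142-5p, miR-17-5p, miR-186-5p, miR-30d-5p, miR-125a-5p, miR-148a-3p, miR-192-5p, miR-126-3p, miR-224-5p, miR-27b-3p, miR-21-3p, miR-92b-3p and miR-183-5p. miR-142-5p, which is restricted to blood cells, had 16272, 14522 and 14053 CPM and was highest in control 1. miR-126-3p, the arm with the better known targets, stood at 9676, 11221 and 9888 CPM, below its 5p partner in every sample. miR-224-5p, encoded within GABRE on chromosome X, had 10069, 10846 and 8315 CPM and a coefficient of variation (CV) of 13.3%, the widest of the 25 with plain library sizes. With library sizes scaled by TMM (edgeR's trimmed mean of M-values) its CV was 10.08%, below the 14.6% of miR-99b-5p and the 12.9% of miR-10a-5p.

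**Figure D2:**
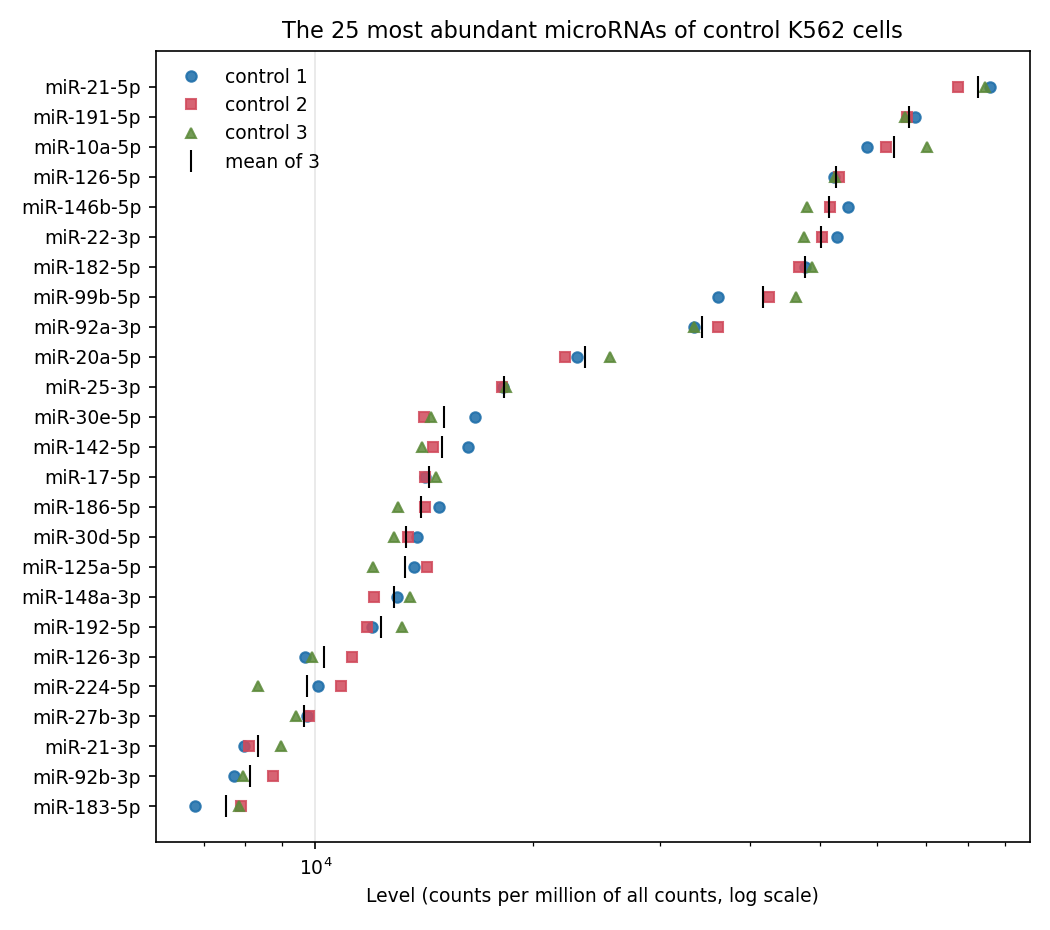
Level (CPM, log scale) of the 25 most abundant microRNAs in the 3 control samples, with 1 symbol per sample and a tick at the mean of 3. miR-21-5p leads at 77627 to 85892 CPM, and the levels from miR-30e-5p to miR-192-5p lie close together with overlapping samples.

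Summed by seed, the repertoire kept the same leading names and gave the seeds of the miR-17/92 cluster higher ranks. The 10 highest of 1843 seed families held 69.7% of the microRNA counts, and in 8 of these 10 the leading microRNA held over 99% of its family. Of these 8, the families of miR-191-5p, miR-10a-5p, miR-126-5p, miR-22-3p and miR-182-5p had 1 name with a sequence, so that this share was fixed. Only those of miR-21-5p, miR-146b-5p and miR-99b-5p had a further such name. The miR-21 family held 10.3% ± 0.499, miR-191 8.24% ± 0.134 and miR-10a 7.86% ± 0.762 of the microRNA counts. The family of miR-92a-3p, miR-25-3p and miR-92b-3p had rank 4 with 7.54% ± 0.29, and was led by miR-92a-3p with 56.5% of the family. It was followed by the families of miR-126-5p (6.53% ± 0.0916), miR-146b-5p (6.38% ± 0.413), miR-22-3p (6.23% ± 0.333) and miR-182-5p (5.92% ± 0.0981). The ninth, with the seed of miR-17-5p, held 5.54% ± 0.231 and had 4 members above 100 CPM, more than any other of the 10 families. Of its members, miR-20a-5p gave 52.9%, miR-17-5p 32.2%, miR-93-5p 12.8% and miR-106b-5p 2.09%. The family of miR-99b-5p closed the list with 5.18% ± 0.639. Among names with a RefSeq sequence, 10 of the 105 families with a member above 100 CPM had a second such member. The 21 names above 100 CPM without a sequence, miR-30d-5p and miR-10b-5p among them, were placed in no family, so that the sums and member counts of families are lower bounds.

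Within families the levels of near relatives differed widely. miR-146b-5p stood at 51386 CPM and miR-146a-5p at 13.3 CPM ± 1.32, although their sequences differ at 2 of the 22 bases compared. miR-17-5p had 14342 CPM against 6.39 CPM ± 0.778 for miR-106a-5p, and miR-20a-5p had 23592 CPM against 3.03 CPM ± 0.418 for miR-20b-5p. miR-99b-5p was followed in its family by miR-99a-5p at 21.9 CPM ± 3.65 and miR-100-5p at 19.1 CPM ± 1.95. The split was less extreme for miR-27b-3p and miR-27a-3p, with 9638 and 2213 CPM, and for miR-23a-3p and miR-23b-3p, with 764 and 303 CPM. Each of the last pairs differs at 1 base, as do miR-17-5p and miR-106a-5p, and miR-99a-5p and miR-100-5p. The share of reads given to each of these names depends on how the authors' counting treated near matches and is uncertain.

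A property of the counts that bears on every family sum was the low level of mature sequences encoded at more than 1 locus. RefSeq gave 1 locus for 2126 names and 2 or more for 136. Loci were counted by mature name, so that loci with the same sequence under another name were not counted. Of the names with 1 locus 118 (5.55%) reached 100 CPM, and of those with 2 or more 1 did (0.735%). No count in any sample was found for 100 of the 136 names with 2 or more loci and for 967 of the 2126 names with 1 locus. The exception was miR-92a-3p, which is encoded on chromosomes 13 and X and stood at 34287 CPM. How reads with several equal matches were counted is not given in the sources used here, and its part in these levels was not tested.

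The following pairs are shown because in each the first sequence has 2 loci and the second, from the opposite arm of the same hairpin, has 1 locus of its own. The seed is in capitals.
miR-16-5p: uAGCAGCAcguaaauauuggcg
miR-16-2-3p: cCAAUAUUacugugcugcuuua
miR-30c-5p: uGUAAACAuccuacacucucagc
miR-30c-1-3p: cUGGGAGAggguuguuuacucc
miR-26a-5p: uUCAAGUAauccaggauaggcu
miR-26a-2-3p: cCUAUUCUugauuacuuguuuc
miR-181a-5p: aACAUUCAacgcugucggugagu
miR-181a-2-3p: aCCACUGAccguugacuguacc
miR-24-3p: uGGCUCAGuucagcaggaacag
miR-24-2-5p: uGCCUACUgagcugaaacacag
miR-16-5p, a major microRNA of most blood cells that targets BCL2 and cyclins, had 10, 59 and 60 counts in controls 1, 2 and 3. Its locus-specific partner miR-16-2-3p had 808, 2595 and 2357 counts. miR-24-3p had 0, 1 and 1 count against 61, 204 and 164 for miR-24-2-5p.

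miR-26a-5p had 6, 17 and 11 counts against 157, 467 and 481 for miR-26a-2-3p. miR-181a-5p, a regulator of lymphoid development, had 0, 0 and 1 count, and miR-181a-2-3p had 108, 423 and 446. In 8 of the 11 such pairs whose locus-specific arm reached 10 CPM, the arm with 2 loci was the lower in all 3 samples. The pairs that departed from this were miR-92a-3p with miR-92a-1-5p, miR-19b-3p with miR-19b-1-5p (90.1 against 50.7 CPM) and miR-128-3p with miR-128-1-5p (84.3 against 93.1 CPM). The minimum of 10 CPM was set on the locus-specific arm alone, which favors pairs in which that arm is the higher. The 8 of 11 therefore cannot show how often an arm with 2 loci is the lower. Pairs left out by this minimum include let-7f-5p, with 2 loci and 82, 369 and 309 counts, against 0, 1 and 1 for let-7f-1-3p. The other opposite arm, let-7f-2-3p, had 21, 52 and 57 counts (10.2 CPM). It had no RefSeq sequence and was therefore not paired. miR-194-5p, with 2 loci, likewise had a higher mean than miR-194-3p. In family sums, names with 2 or more loci enter with the counts listed under their names.

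**Figure D3:**
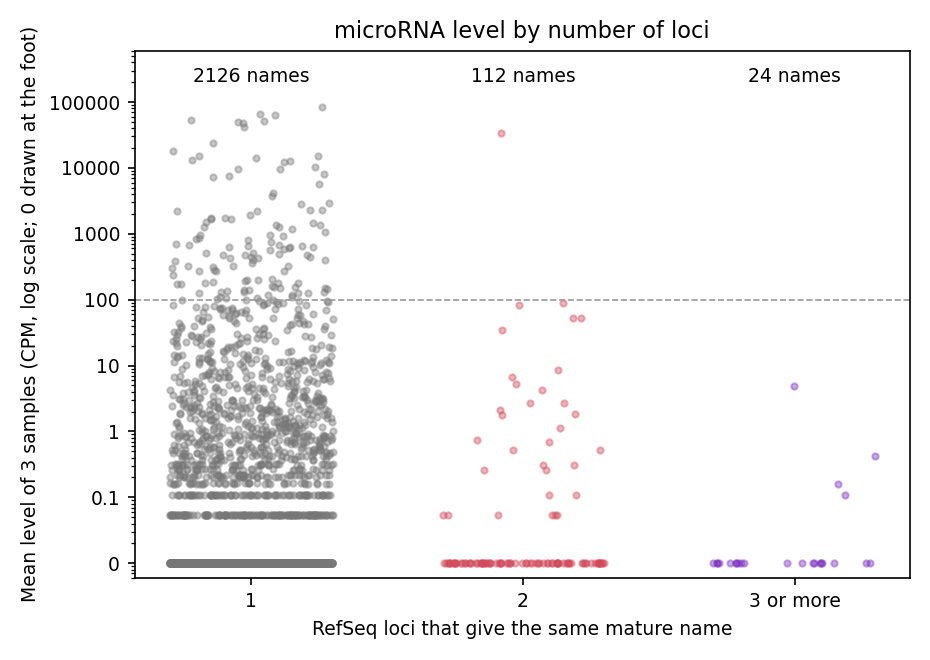
Mean level over the 3 control samples (CPM, log scale, with 0 drawn at the foot) of each microRNA name against the number of RefSeq loci that give the same mature name, with 1 point per name and a dashed line at 100 CPM. Of 136 names with 2 or more loci 1 lies above 100 CPM, against 118 of 2126 names with 1 locus.

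The arms of each precursor were used very unequally. Names ending in 5p held 73.5% ± 0.522 of the microRNA counts and names ending in 3p 25.03% ± 0.508, with 870 and 878 names listed for the arms. Arms were compared in 222 precursors with both arms listed, no arm known to have 2 or more loci under its name, and at least 10 counts over both arms in every sample. In 37 of them an arm had no RefSeq sequence, so that its number of loci was not known. Of the 222, 106 gave at least 75% of their arm counts to the 5p arm in every sample and 78 to the 3p arm, while 38 did neither. In 217 of the 222 the same arm was the higher in all 3 samples, and in 68 the mean share of the major arm was above 99%. The SD of the 5p share over the 3 samples had a median of 0.861 percentage points. The numbers depended on the thresholds. With a minimum of 1 count 142 precursors were dominated by 5p, 151 by 3p and 124 by neither, and with dominance set at 90% they were 76, 62 and 84.

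Among the 10 most abundant of these 222 precursors 8 favored the 5p arm. miR-92a, whose 3p arm has 2 loci, was not among the 222, with 34287 CPM on miR-92a-3p and 964 CPM on miR-92a-1-5p. miR-191, miR-10a, miR-146b, miR-182, miR-99b and miR-20a each had a 5p share of 99.3% or more, and miR-22 had 0.0831% ± 0.00763, which makes it almost entirely a 3p precursor. miR-25 also favored 3p, with a 5p share of 2.69% ± 0.192. miR-21 and miR-126 were the ones with an abundant second arm. The 5p share of miR-21 was 91.5%, 90.6% and 90.4% in controls 1, 2 and 3, and that of miR-126 was 84.4%, 82.6% and 84.1%.

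Balanced arms were found at lower levels. Of precursors with at least 100 CPM over both arms, miR-32 (44.5% ± 1.5 from 5p), miR-145 (44.5% ± 2.14), miR-33b (43.0% ± 2.06), miR-106b (57.5% ± 2.89) and miR-642a (40.7% ± 6.25) lay nearest to equal use. miR-642a also had the widest spread, with 33.7%, 42.4% and 45.9% in controls 1, 2 and 3. The value in control 1 rested on 58 of 172 counts, for which the 95% Wilson interval was 27.1% to 41.1%, so that the other 2 samples lay outside it. miR-628 followed with 36.3%, 36.5% and 44.1%, then miR-374b with 77.7%, 78.7% and 72.4% and miR-331 with 19.6%, 16.9% and 13.5%. In miR-106b, the fifth, the values were 60.7%, 55.0% and 57.0%, and the 5p arm was the higher in all 3 samples.

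The first base also separated the arms. Argonaute proteins favor uridine at the 5′ end of the loaded strand. Uridine began 58.0% ± 0.276 of the microRNA counts with a known sequence, cytidine 32.3% ± 0.396, adenosine 9.33% ± 0.463 and guanosine 0.394% ± 0.0118. Of the 154 precursors with a dominant arm and both sequences in RefSeq, the dominant arm began with uridine in 91 (59.1%) and the minor arm in 33 (21.4%). With each name counted once, uridine began 49.6% of the 119 names above 100 CPM, and 32.0% of the 1067 names without a count. The share weighted by counts rests on few names, and it was 54.8% without the 5 most abundant.

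Genomic clusters contributed much of the repertoire. Precursors within 10 kb of another on the same strand held 46.0% ± 0.123 of the microRNA counts and solitary precursors 49.6% ± 0.278, with sequences of 2 or more loci left out. The pair of miR-191 and miR-425 on chromosome 3 was the highest cluster with 8.56% ± 0.143, of which miR-191-5p made up 96.3% of the CPM. The miR-183/96/182 cluster at chr7:129770383-129775014 held 7.04% ± 0.119 and the miR-99b/let-7e/125a cluster at chr19:51692612-51693339 held 6.98% ± 0.568. The miR-17/92 cluster at chr13:91350605-91351391 held 5.98% ± 0.244 without miR-92a-3p and miR-19b-3p, and the miR-106b/93/25 cluster at chr7:100093560-100094074 held 3.25% ± 0.00667.

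Members of a cluster differed by orders of magnitude. In the cluster on chromosome 19, miR-99b-5p had 41636 CPM, miR-125a-5p 13317 CPM and let-7e-5p 1057 CPM. In the miR-23b/27b/24-1 cluster, miR-27b-3p had 9638 CPM and miR-23b-3p 303 CPM. In the miR-192/194-2 cluster, miR-192-5p alone made up 99.9% of the CPM. Of the paralog of the miR-17/92 cluster on chromosome X, the names with 1 locus were low, led by miR-106a-5p at 6.39 CPM (9, 40 and 44 counts), miR-20b-5p at 3.03 CPM, miR-18b-5p at 2.65 CPM and miR-363-3p at 0.8 CPM, with no count on miR-92a-2-5p. miR-92a-3p and miR-19b-3p also map there, and their counts cannot be divided between the chromosomes. The count of miR-106a-5p, which differs from miR-17-5p at 1 base, is uncertain.

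The labeled cell line was set against marker microRNAs. In bulk RNA, fewer cells of a type and less RNA per cell cannot be told apart. The erythroid list summed to 6301, 5865 and 6263 CPM in controls 1, 2 and 3, with 4 of 7 names above 100 CPM. miR-451a, which is processed by Argonaute 2 in place of Dicer and drives red cell maturation, led it with 3677, 3543 and 3873 CPM. It was followed by miR-144-5p with 1256 CPM ± 75.5 from the same transcript, miR-486-5p with 973 CPM and miR-144-3p with 153 CPM ± 20.9, while the 2 arms of miR-4732 had 0 to 3 counts in any sample.

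Among megakaryocyte and platelet linked microRNAs the list sum of 65171 CPM ± 1267 was mostly miR-126, and 4 of 12 names lay above 100 CPM. miR-223-3p stood at 1788, 1643 and 1601 CPM. miR-146a-5p had 13.3 CPM ± 1.32, and miR-34a-5p, a p53 target, had 2, 2 and 8 counts. Myeloid markers summed to 19208 CPM ± 1360, led by miR-142-5p, and include miR-223 again. Lymphoid markers were near the floor, at 1.86 CPM ± 0.0873 in all, with miR-155-5p at 2, 10 and 7 counts and miR-150-5p at 0, 1 and 4 counts. Both miR-150 and miR-155 also belong to the megakaryocyte and platelet linked list.

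HOX cluster microRNAs summed to 64052 CPM ± 6226, nearly all from miR-10a-5p. miR-10b-5p had 456 CPM, miR-615-3p 170 CPM and miR-196a-5p and miR-196b-5p had 2.72 and 0.271 CPM. miR-196a-5p has 2 loci, so that its low count does not show a low level. The miR-17/92 cluster with its paralogs was the highest list, with 107544, 108356 and 110096 CPM and 16 of 28 names above 100 CPM. Progenitor linked microRNAs stood at 13412 CPM ± 1182, of which miR-125a-5p was 13317 CPM, and miR-125b-5p, which has 2 loci, had 1 count in each sample. The let-7 list, known for restraining proliferation, reached 1526, 1421 and 1470 CPM over 20 names, 3 of them with 2 or more loci, and let-7e-5p and let-7g-5p were the 2 names above 100 CPM.

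Markers of other tissues had low sums. Of their names 4 of 14 neuronal, 2 of 11 muscle, 13 of 61 placental and 2 of 10 mesenchymal ones have 2 or more loci, a kind of name that was nearly always at or near 0 in these files, so that low sums of these lists do not show low levels of those names. The epithelial list (miR-200 family, miR-141, miR-429 and miR-205) summed to 80.6 CPM ± 1.73, the placental chromosome 19 cluster to 52.8 CPM ± 3.56 over 61 names, the pluripotent list to 22.2 CPM ± 1.63 and the neuronal list to 17.4 CPM ± 1.11. Muscle markers stood at 5.82 CPM ± 1.7, with miR-499a-5p as the leading name, and miR-122-5p of liver at 0.897 CPM ± 0.636. The mesenchymal list was higher, at 623 CPM ± 34.7, led by miR-199b-5p with 442 CPM. The imprinted chromosome 14 cluster reached 853 CPM ± 17.6 over 85 names, led by miR-127-3p with 482 CPM, and miR-31-5p, which maps to chromosome 9p21, had 2.6 CPM ± 1.05.

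The RNAs that were also assayed by q-RT-PCR spanned a wide range of levels. miR-126-3p (10262 CPM), miR-451a (3697 CPM), miR-27a-3p (2213 CPM), miR-223-3p (1677 CPM) and miR-144-3p (153 CPM) were abundant enough to have CVs of 2.35% to 13.7%. miR-222-3p and miR-221-3p, which restrain erythropoiesis through KIT, had 33, 109 and 114 and 9, 47 and 62 counts, and miR-28-3p had 10, 24 and 29. Of the reference RNAs, SNORD48 stood at 10637, 10126 and 11388 CPM and SNORD68 at 701, 702 and 617 CPM, while RNU6-2 had 0, 6 and 3 counts. RNU6-2 is 1 of many U6 copies with near-identical sequence, and its count is uncertain.

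C/D box snoRNAs were the second large group. SNORD93 led them with 12230, 11883 and 12631 CPM, 16.1% of the class. SNORD48 followed with 10717 CPM ± 634, SNORD33 with 7276 CPM ± 394, SNORD78 with 5643 CPM ± 136 and SNORD119 with 3381 CPM ± 244. The CPM of SNORD93 and SNORD48 thus lay near those of miR-192-5p and miR-126-3p, as counts of short reads and not of intact snoRNAs. Of the C/D box entries 78 of 274 lay above 100 CPM, against 11 of 113 H/ACA box entries. SNORA31 led the H/ACA box class with 367, 728 and 606 CPM, the lowest value in control 1. It was followed by SNORA3 with 469 CPM ± 63.6, SNORA74A with 256 CPM ± 20.3, SNORA71D with 218 CPM ± 17.2 and SNORA74 with 161 CPM ± 27.3.

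Of the scaRNAs, SCARNA2 stood highest with 670, 765 and 685 CPM, 36.0% of the class, ahead of SCARNA9 with 257 CPM ± 48.1 and SCARNA15 with 155 CPM ± 6.1. Entries named after snoRNA host genes were high. SNHG1 had 19876, 20966 and 19162 CPM, GAS5 6854 CPM ± 383 and SNHG5 4061 CPM ± 112. The files do not say which snoRNAs these entries hold, and whether reads were also counted under the snoRNA names was not tested.

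Ribosomal entries were led by RNA5-8SP2, a 5.8S copy, with 29465, 31581 and 32295 CPM and 50.5% of the class. The mitochondrial MT-RNR2 had 9674, 12200 and 11536 CPM and was lowest in control 1, and RNA5SP74 had 8323 CPM ± 239. These genes belong to multicopy families, so that the assignment to 1 copy is uncertain. Among snRNAs, RNU5E-1 had 728, 739 and 725 CPM, followed by the minor spliceosome members RNU12 with 407 CPM ± 34.4 and RNU11 with 218 CPM ± 23.8. The 3 highest piRNA-annotated entries, known only by database numbers, had 811, 383 and 295 CPM, and 73 of the 23373 had a count in every sample.

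Most counts on predicted microRNAs repeated those of named ones. Of the 10 predicted entries with at least 50 counts in all, 6 had counts within 2 of a named microRNA in every sample, and these 6 held 95.7% of the counts on predicted entries and 1.25% ± 0.0331 of all counts. The highest, at chr9:97847787-97847807 on the plus strand (hg19, as in its name), had 15756, 60215 and 58166 counts against 15756, 60213 and 58166 for miR-27b-3p. The second, at chr22:22007605-22007626 on the plus strand, lay within 2 counts of miR-130b-5p, and the third, at chr13:50623305-50623324 on the minus strand, had the same counts as miR-15a-5p. These counts enter the totals used for CPM under both names.

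The 3 samples were close in level but not identical. Across the 273 entries with a mean of at least 100 CPM, Pearson's r of log2 CPM was 0.997 to 0.998 between pairs of samples and Spearman's rho 0.991 to 0.993. These are correlations across entries of 2 libraries, and entries are not independent replicates. The CV had a median of 6.33%, 220 of the 273 entries were under 10%, and 5 were above 20%. By class the median CV was 5.96% for the 140 microRNAs, 6.77% for 78 C/D box snoRNAs, 8.71% for 11 H/ACA box snoRNAs and 8.72% for 11 ribosomal entries. The biological coefficient of variation, edgeR's estimate of the spread beyond counting error, was 7.67% over 863 entries, and the median dispersion of DESeq2 over the same entries gave 13.8%.

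The spread was compared with counting error in a chi-square test of each entry's 3 counts against the library sizes, with Benjamini-Hochberg adjustment over all entries tested. Of 804 entries 228 (28.4%) varied beyond counting error, with an adjusted p under 0.05. Among microRNAs these were 113 of 474 (23.8%), among C/D box snoRNAs 56 of 118 (47.5%) and among H/ACA box snoRNAs 16 of 70 (22.9%). The share followed the level, from 7 of 204 entries under 10 CPM (3.43%) to 25 of 25 entries above 10000 CPM, and all of the 25 most abundant microRNAs were among those that varied. The largest chi-square values were those of miR-10a-5p, miR-99b-5p, miR-21-5p and miR-224-5p. No pair of samples agreed within counting error, with a chi-square per entry of 11.7 between controls 1 and 2, 18.9 between controls 1 and 3 and 22.4 between controls 2 and 3, and each was counted as a separate sample. The medians over entries, in the same order, were 0.9, 1.04 and 1.38. Chi-square grows with depth and controls 2 and 3 were the deepest, so that these values do not rank how far the pairs differed. The 228 fell to 113 without control 2 and to 88 without control 3, where only the shallow control 1 and 1 other sample were left.

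**Figure D4:**
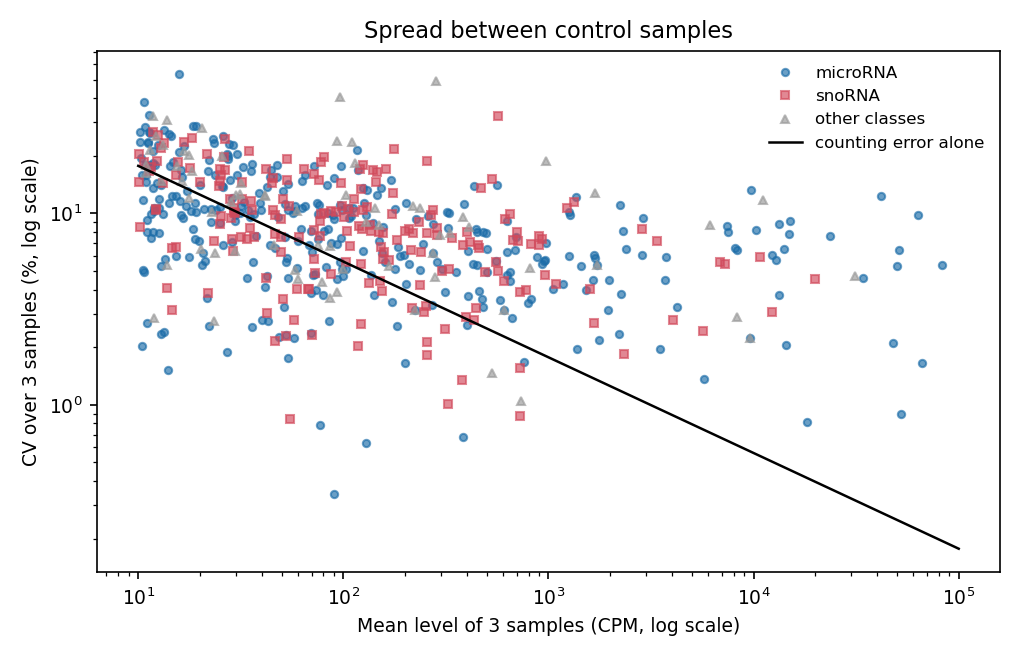
CV over the 3 control samples (percent, log scale) against the mean level (CPM, log scale) for entries of at least 10 CPM, with 1 point per entry, and a line for the CV that counting error alone gives at these library sizes. The points follow the line at low levels and lie above it at high levels, where the CV stays near the median of 6.33%.

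The most even microRNAs above 100 CPM were miR-574-3p, miR-671-3p, miR-25-3p, miR-126-5p and miR-93-5p, with CVs from 0.629% to 1.36%. The first 2 of these CVs were smaller than the 4.93% and 2.88% that counting error gives at their counts. miR-25-3p and miR-126-5p, with 0.81% and 0.891%, exceeded their counting errors of 0.416% and 0.245%. Among snoRNAs SNORD82, SNORD92, SNORD69, SNORD15A and SNORD6 were the most even, with CVs from 0.876% to 1.83%, each below its counting error. This depended on the scaling. With TMM the CVs of these 10 were between 2.57% and 4.23%, and those of miR-671-3p (3.39%), SNORD82 (2.96%), SNORD69 (3.05%) and SNORD15A (3.58%) were above their counting errors.

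The widest spread among microRNAs above 100 CPM was that of miR-628-3p, with 129, 133 and 87.7 CPM and a CV of 21.5%, lowest in control 3. miR-140-5p, with 95.2, 128 and 131 CPM, was lowest in control 1. miR-615-3p had a CV of 15.01%, miR-561-5p of 14.01% and miR-16-2-3p of 13.9%. Of the snoRNAs, SNORA31 (32.4%), U8 (21.8%), SCARNA9 (18.7%), SNORD45B (17.9%) and SNORD84 (17.1%) varied most. U8, a C/D box RNA needed for ribosomal RNA cleavage, had 193, 205 and 133 CPM. The entry with the largest departure of any above 100 CPM was the 5S copy RNA5SP336, with 441, 188 and 218 CPM, a log2 difference of 1.13 between control 1 and the mean of the other samples.

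Most entries were higher in control 2 than in control 3 with plain library sizes. Of the 273 entries above 100 CPM 194 were, with a median log2 difference of 0.08. C/D box snoRNAs were higher in control 2 in 65 of 78 entries, with a median log2 difference of 0.14, and H/ACA box snoRNAs in 10 of 11, with 0.23. Of the microRNAs 84 of 140 were higher in control 2, with a median of 0.05. The scaling sets the direction for microRNAs and for all entries together, and most of the C/D box difference was gone with TMM. Over all entries the median with TMM was -0.02, with 122 of 273 higher in control 2. With TMM, which divides control 2 by a factor of 1.03 and control 3 by 0.964, the medians were 0.04 for C/D box snoRNAs (42 of 78 higher in control 2), 0.13 for H/ACA box snoRNAs (9 of 11) and -0.05 for microRNAs (45 of 140).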

How the data were processed

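Small RNA was sequenced from 3 samples of K562 cells with the empty vector. The authors made TruSeq Small RNA libraries, sequenced them on a HiSeq2000, used CASAVA 1.8.2 per the processing notes of the submitters, which also name the build hg19, and analysed them on the OASIS platform. The deposited values are whole-number counts per entry without normalization. The aligner, the counter and the handling of reads with several matches are not given in the sources used here. Of each file 5 rows that name no small RNA hold a sum of 0 and were left out. The other 3 samples were not used here. Classes were read from entry names, and 5 names by their block in the files.

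CPM was computed on all counts of a sample. Total counts ranged from 1618248 to 6193319. Sequences, loci and hairpin coordinates were from RefSeq GRCh38.p14 and host genes from GENCODE 29. Sequences on a name with 2 or more loci were kept out of arm and cluster values. Spread was tested with the chi-square test for entries with an expected count of at least 5 in every sample, and dispersion was estimated with edgeR 4.0.16 (TMM, filterByExpr) in R 4.3.3, with DESeq2 1.42.0 as an alternative. Figures were drawn with matplotlib 3.10.9. The tests were checked on simulated data.

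Named small RNAs followed a rule by mean CPM: the 25 highest microRNAs, the 10 highest seed families, the 10 highest precursors with the 5 nearest to equal arms and the 5 of widest arm spread, the highest 5 C/D box and H/ACA box snoRNAs and 3 of each other class, the 5 of largest and smallest CV, the marker lists and the RNAs assayed by q-RT-PCR. Precursors were ranked among those whose arms were compared. Others named as examples of loci, clusters or near relatives were chosen after their values were seen. The samples, lists and rules were chosen with earlier results of these data known. Alternatives were other denominators, TMM and DESeq2 scaling, pooled counts, other count minimums, dominance at 90%, seeds of bases 2 to 7, and each sample left out.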

Additional observations from a re-analysis of the deposited data

How the results depend on the processing

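The class shares moved by less than the spread between samples with pooled counts, as did the levels of the named RNAs with TMM or DESeq2 scaling. Leaving out 1 of 3 samples cannot move a mean by more than that spread, so that it is no check of these values. The numbers of microRNAs for 50% and 90% of the counts stayed at 7 and at 31 to 32 with pooled counts, in each sample alone and without names of 2 or more loci. Leaving the 6 repeated predicted entries out of the total, an alternative chosen after seeing the data, gave microRNAs 81.5% and predicted microRNAs 0.0565% of all counts. With at least 100 counts per sample 61 precursors were dominated by 5p, 42 by 3p and 14 by neither, fewer precursors being tested. With 1 count as the minimum 142 were dominated by 5p, 151 by 3p and 124 by neither, and at 90% dominance the numbers were 76, 62 and 84. Uridine began 41.9% of the names detected in all samples, each counted once, and 54.8% of the counts without the 5 most abundant. Requiring 10 counts in every sample left 391 detected microRNAs. The DESeq2 median dispersion gave a CV of 13.8%. Entries beyond counting error numbered 88 to 200 with 1 sample left out and 191 with TMM. Levels relative to the microRNA counts alone moved for all 25 most abundant microRNAs, by construction. Seeds of bases 2 to 7 moved 1 of the 10 families, that of miR-182-5p, by more than its spread, from 5.92% to 6.1%. No paired analysis was possible because only the control samples entered and no groups were compared, so that no replicate block could be fitted. Depth limited the reading of levels under 1.85 CPM (3 counts) in control 1.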

Other observations

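The number in a microRNA's name, which largely follows the order of its discovery, went with its level. The 265 names of let-7 and of numbers under 200 held 93.1% ± 0.311 of the microRNA counts (SD, n = 3), and 75 of them lay above 100 CPM. Names from 200 to under 1000 held 6.04% ± 0.295, with 55 of 667 above 100 CPM and miR-224-5p as the highest. The 204 names from 1000 to under 3000 held 0.373% ± 0.0156 and were led by miR-1307-5p with 1758 CPM. The 1440 names from 3000 upward are the largest group in the files and held 0.51% ± 0.0107, with 279 counted in every sample and 7 above 100 CPM, of which miR-3681-5p at 665 CPM was the highest.

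The abundant mature sequences also differed in composition from those without a count. The mean GC content was 52.3% over the 1067 names with a sequence but no count and 48.0% over the 119 names above 100 CPM, and the mean lengths were 21.3 and 22.1 nt. Sequences of 22 nt made up 39.8% of the former and 58.0% of the latter. Over all names with a sequence the values were 52.4% GC, 21.6 nt and 44.9% of 22 nt. In GC content the names without a count were thus close to the whole list. Weighted by counts, the mean GC content was 45.3%, 45.7% and 45.6% in controls 1, 2 and 3.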
